A study of Mus musculus with 4 samples.

Results

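Islet macrophages were examined by scRNA-seq in 4 libraries of mouse islet cells, each from islets left untreated or exposed for 6 h to IL-1β, to IFN-γ or to both cytokines. A barcode was taken as a cell when it held 200 to 4000 detected genes and at most 12% mitochondrial transcripts. A cell was called a macrophage when it held transcripts of at least 4 of 7 markers, *C1qa*, *C1qb*, *Cd68*, *Lyz2*, *Tyrobp*, *Laptm5* and *Ptprc*. Insulin transcripts (*Ins1* and *Ins2*) had to be under 2% of its total, *Gcg*, *Sst* and *Ppy* each under 1%, and fewer than 2 of the endothelial markers *Pecam1*, *Plvap* and *Flt1* could be detected. This rule found 133 macrophages among 7471 kept cells of 12571 barcodes, a share of 1.78% (exact binomial 95% interval 1.49 to 2.11). There were 28 without cytokine, 37 with IL-1β, 40 under IFN-γ and 28 under the combination, which is 1.84%, 1.83%, 1.89% and 1.55% of the kept cells. The exact binomial 95% intervals of these shares, 1.23 to 2.65, 1.29 to 2.52, 1.35 to 2.56 and 1.03 to 2.23, overlapped.

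The islets came from adult male C57BL/6 mice (C57BL6/J in the methods of the study), were pooled over animals and then separated into the 4 samples, and were treated as intact islets before they were dissociated. The untreated islets received no cytokine. The treated ones received human recombinant IL-1β, mouse IFN-γ or the combination. Each condition gave 1 library, so replicate spread is unknown for every condition and nothing was tested between conditions. The pool also means that differences between animals were not measured. Since whole islets were treated, effects of a cytokine on the macrophages and effects through neighbouring islet cells cannot be told apart.

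Macrophages live in the islet under normal conditions, close to the vessels and the β-cells, where they take up debris and secretory granules and present peptides on MHC class II molecules. IFN-γ acts on them through the receptor chains encoded by *Ifngr1* and *Ifngr2* and the kinases JAK1 and JAK2, which activate transcription factors of the STAT family. IL-1β acts through the receptor encoded by *Il1r1* with its partner *Il1rap*, and MyD88-dependent signaling then frees NF-κB from its inhibitor, encoded by *Nfkbia*. Both pathways have been studied in macrophages for the induction of chemokines, of antigen presentation and, in rodents, of the inducible nitric oxide synthase gene *Nos2*.

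In droplet-based sequencing each captured transcript carries a unique molecular identifier (UMI), so the counts are of molecules. The 4 libraries held 50731370, 20056630, 31209339 and 25716645 UMIs over all barcodes, in the order untreated, IL-1β, IFN-γ and both, which is the order used for values throughout. The macrophages alone held 292337, 209168, 331493 and 264678. Median UMIs per macrophage were 10730.5, 5170, 8511.5 and 9547 in the same order, so the IL-1β cells were the shallowest. A level is the summed UMIs of a gene per 1000000 UMIs of the macrophages of a library (CPM), with an exact Poisson 95% interval. All intervals cover counting error only. Because the libraries differed in depth, some shares of cells with a UMI (*Cxcl9*, *Acod1* and *Il1b*) are also given after each cell was thinned to 2000 UMIs, which left out 2, 1, 2 and 0 macrophages.

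The macrophages were chosen by the detected transcripts of the 7 markers and the limits on hormone and endothelial transcripts, so the values of these genes are a description only. All 7 markers were detected in 23, 26, 33 and 26 macrophages, and only 2 cells entered with 4. Those 2 cells had a median of 826 UMIs, and the 5 cells that missed the rule with 3 markers had a median of 778. On the insulin limit, 4 macrophages held 1% to 2% insulin transcripts, and 8 cells with enough markers were left out above 2%, of which 7 were untreated. The plot of marker genes by library shows the genes that the rule did not use. *C1qc*, which encodes the remaining chain of C1q, was detected in 100%, 97.3%, 100% and 100% of the macrophages. *Csf1r*, the receptor for the growth factor that keeps macrophages alive, was at 393 CPM untreated, 287 with IL-1β, 281 under IFN-γ and 370.3 under both. *Adgre1*, which encodes F4/80, was at 274, 363, 275 and 215 CPM. For comparison, *C1qb* was seen in 0.436%, 0.197%, 0.508% and 0.165% of β-cells, which had median depths of 17320.5, 8567.5, 11369.5 and 12316 UMIs. Cells with 4 or more of the 7 markers were left out of the β-cells, so these low shares are in part set by that limit. None of the 7 rule markers was past 2-fold in a treated library, and of the markers outside the rule *Cx3cr1* was lower in each.

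**Figure D1:**
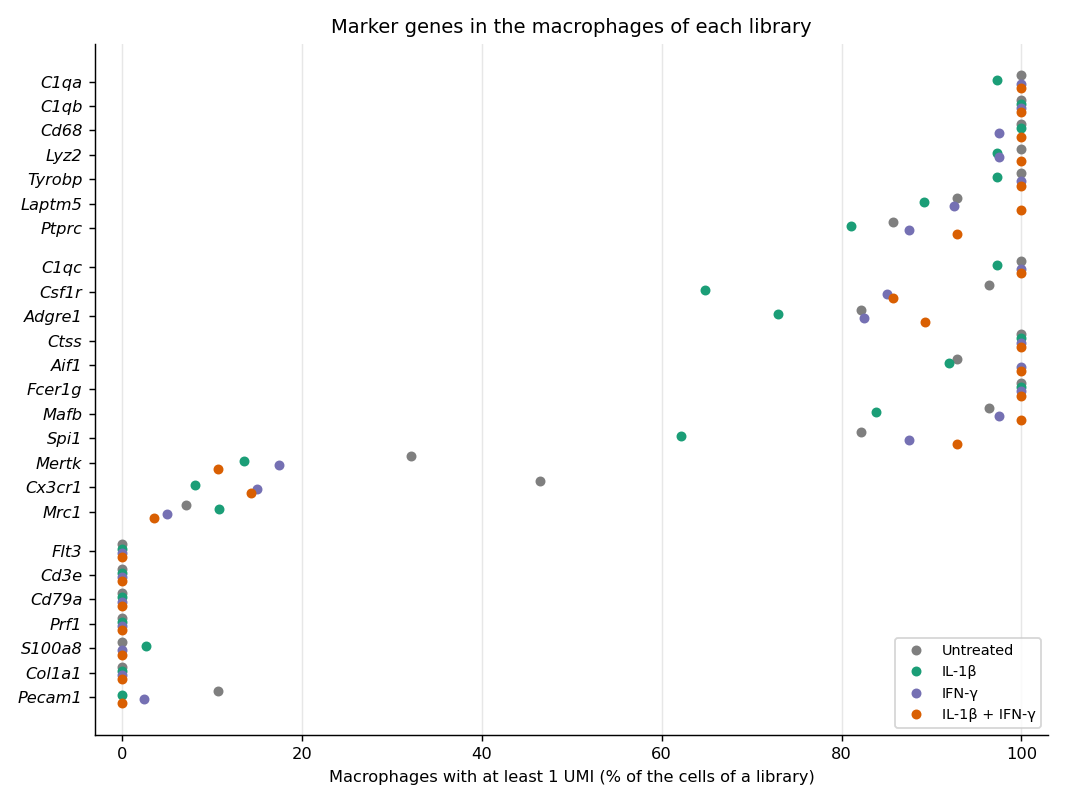
Share of macrophages with at least 1 UMI (x axis, percent of the cells of a library) for marker genes, with 1 point per library in 4 colours. The upper block holds the 7 genes of the rule, the middle block macrophage genes outside it, and the lower block markers of dendritic, T, B, NK, neutrophil, mesenchymal and endothelial cells, of which *Pecam1* reaches 10.7% untreated and *S100a8* 2.70% with IL-1β and the other 5 plotted lie at 0.

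Markers of other leukocytes gave few UMIs. Of 8 dendritic cell markers, at most 2 were detected in a library, with 1, 2, 3 and 1 UMIs in all, and *Flt3* was at 0 in all 4. The 6 T cell markers summed to 0, 3, 0 and 1 UMIs, all of them *Cd4*, with *Cd3e* at 0, and the 4 NK cell markers were at 0. The 4 B cell markers gave 3, 3, 4 and 0 UMIs, all *Cd79b* and in at most 4 of the 40 cells of a library, and the 5 neutrophil markers gave 0, 1, 0 and 1. The 5 mesenchymal markers gave 0, 3, 0 and 0, the 3 endothelial markers 5, 0, 2 and 3, and the 2 cycling markers 0, 1, 2 and 0. Of 4 monocyte markers only *Ccr2* was detected, with 8, 0, 0 and 9 UMIs, while *Ly6c2* was at 0. No macrophage held 2 markers of another leukocyte. Acinar transcripts summed to 71.8, 14.3, 120.7 and 41.6 CPM, led by *Ctrb1* in 3 libraries and *Cela1* with IL-1β. Insulin transcripts made up 0.487%, 0.0961%, 0.248% and 0.117% of macrophage UMIs, against 42.4%, 23.4%, 29.8% and 34.3% in β-cells. Their part in the results was not tested. The libraries shared 16 barcodes over all pairs, none of them a macrophage.

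In the untreated macrophages genes of lipid transport, antigen presentation and the lysosome were abundant. *Apoe*, a lipid carrier, was at 18527 CPM (95% interval 18036 to 19027) and was the most abundant of the genes listed. *Cd74*, the invariant chain of MHC class II, was at 5507 CPM and *H2-Aa*, an MHC class II chain, at 1830.1. *Mt1*, a metallothionein, was at 10136, but 3 cells held 56.7% of its UMIs. The lysosomal protease gene *Ctsb* was at 7255 and *Ctsd* at 3157. *Ccl5*, a chemokine that attracts T cells, was at 4406 CPM in 96.4% of the untreated cells. Of 12 genes of tissue-resident or alternatively activated macrophages, 4 were detected in the untreated library, with a summed level of 800.4 CPM led by *Pf4* at 472 CPM. *Mrc1*, the mannose receptor, was at 6.84 CPM untreated, 33.5 with IL-1β, 9.05 under IFN-γ and 3.78 under both, and *Lyve1*, *Cd163*, *Timd4*, *Retnla* and *F13a1* gave no UMI in any library.

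The receptors for the 2 cytokines differed in what was detected. *Ifngr1* was at 88.9 CPM in the untreated library (58.1 to 130.3), 124 with IL-1β (81.2 to 182), 60.3 under IFN-γ (36.9 to 93.2) and 75.6 under both (46.2 to 117). *Ifngr2* was at 106, 115, 115 and 109.6 CPM. Both chains of the IFN-γ receptor were therefore detected in every library, with overlapping intervals. *Il1r1* gave 0, 0, 2 and 0 UMIs. The exact Poisson 95% interval of a count of 0 reaches 12.6 CPM untreated, 17.6 with IL-1β and 13.9 with both. In β-cells of the same libraries *Il1r1* was at 239, 242, 220.0 and 88.6 CPM. *Il1rap* gave 1, 1, 3 and 1 UMIs and the decoy receptor *Il1r2* 0, 2, 0 and 0. *Myd88*, the adaptor used by the IL-1 receptor and by most Toll-like receptors, was at 27.4, 52.6, 36.2 and 60.5 CPM.

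Treatment was compared with the untreated library over all genes with at least 30 UMIs in the pair. A gene was counted when log2(CPM + 20) differed by at least 1, that is 2-fold on that scale, which understates the change of low genes. With IL-1β, 78 of 2343 genes (3.33%) were at least 2-fold higher and 56 (2.39%) lower. With IFN-γ, 195 of 2919 (6.68%) were higher and 49 (1.68%) lower. With both cytokines, 180 of 2574 (6.99%) were higher and 72 (2.8%) lower. The medians over all genes were 0.07, 0.08 and 0.04 on the log2 scale. The 3 comparisons share the untreated macrophages, so their values are set side by side and not counted as separate evidence. A gene near 0 without treatment enters the count only through the library where it is high.

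**Figure D2:**
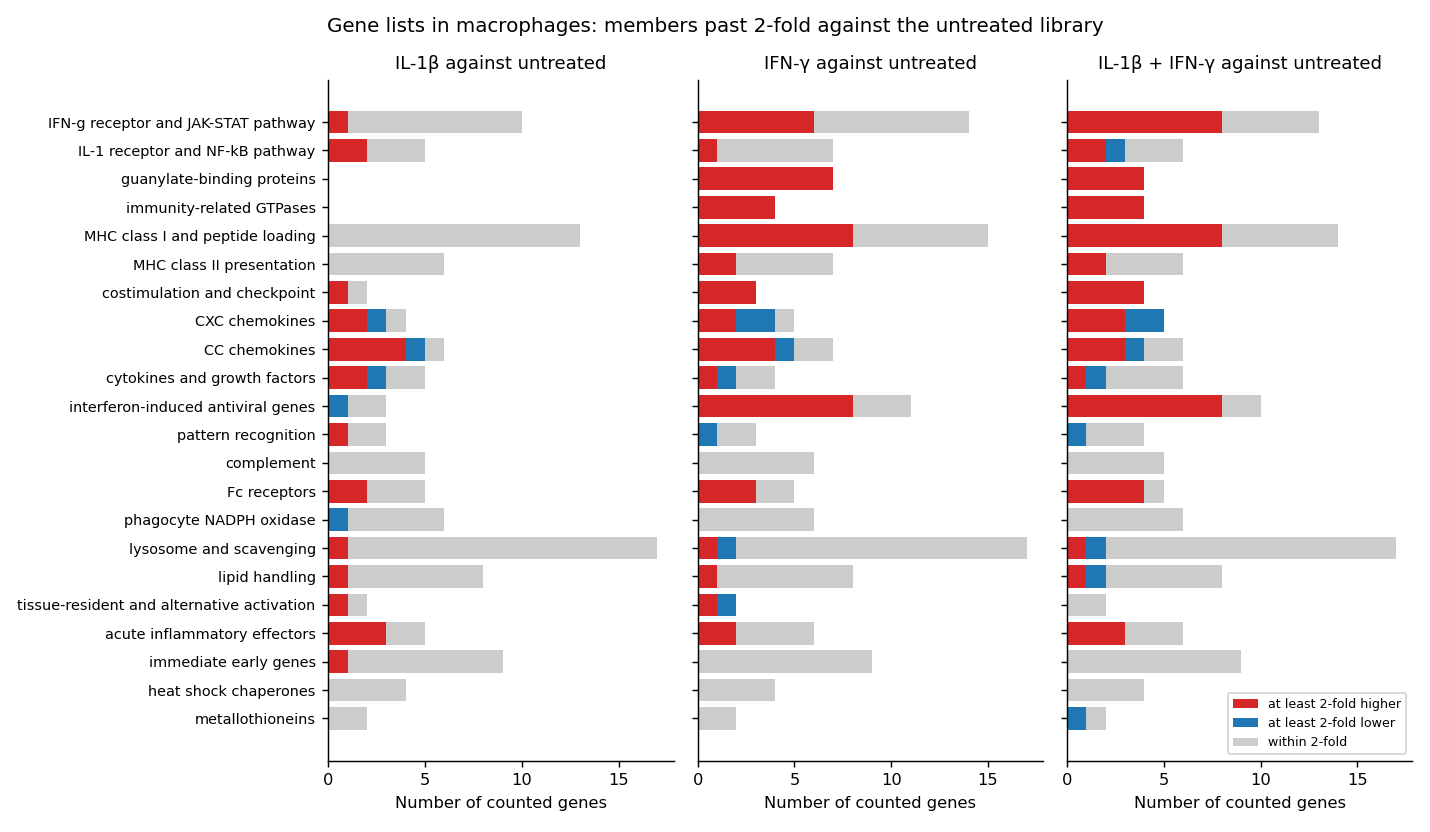
Number of counted genes of each list (x axis) that were at least 2-fold higher, at least 2-fold lower or within 2-fold in macrophages of the 3 treated libraries against the untreated library. All counted guanylate-binding proteins and immunity-related GTPases are higher where IFN-γ was given, but they could pass the UMI minimum only through those libraries. These lists have no counted gene with IL-1β alone, where they were too low to count.

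The interferon-inducible GTPases had the highest list medians with IFN-γ among the lists with counted genes. These proteins assemble on the membranes of vacuoles that hold microbes. All 7 guanylate-binding proteins with enough UMIs were at least 2-fold higher with IFN-γ (list median 3.60 on the log2 scale). So were all 4 counted with both cytokines (4.12), and all 4 immunity-related GTPases in each (4.21 and 3.95). Untreated, the 10 listed guanylate-binding proteins held 12 UMIs together and the 7 immunity-related GTPases 13. A gene of these lists could therefore pass the UMI minimum for counting only through the library with IFN-γ. These full counts were largely set by that minimum, and the medians cover only genes that passed it. Over all genes, 6.68% were higher with IFN-γ and 6.99% with both. *Gbp2* (chr3:142620602-142638008, + strand, mm10) was at 20.5 CPM untreated, 14.3 with IL-1β, 3137 under IFN-γ and 2633 under both. The 2 libraries without IFN-γ were low with overlapping intervals, and the 2 with it were 153-fold (95% interval 70.0 to 417) and 128-fold (95% interval 58.7 to 351) higher than untreated. *Gbp2* was detected in 40 of 40 macrophages with IFN-γ and 28 of 28 with both, and per cell it ranged from 8.77 to 77.2 and from 7.20 to 46.3 UMIs per 10000. No macrophage of the other 2 libraries exceeded 2.42. *Gbp4* gave no UMI untreated or with IL-1β and 440.4 and 449.6 CPM with IFN-γ and with both, at least 42.9-fold and 43.8-fold higher against a floor of 3 UMIs. *Gbp7* was at 3.42, 57.4, 410.3 and 283 CPM. Among the immunity-related GTPases, *Iigp1* was at 0, 0, 1008 and 793 CPM and *Irgm1* at 17.1, 23.9, 600.3 and 468. *Ifi47* was at 6.84, 14.3, 528 and 465 CPM. In each of these the libraries with IFN-γ stood apart from those without it.

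**Figure D3:**
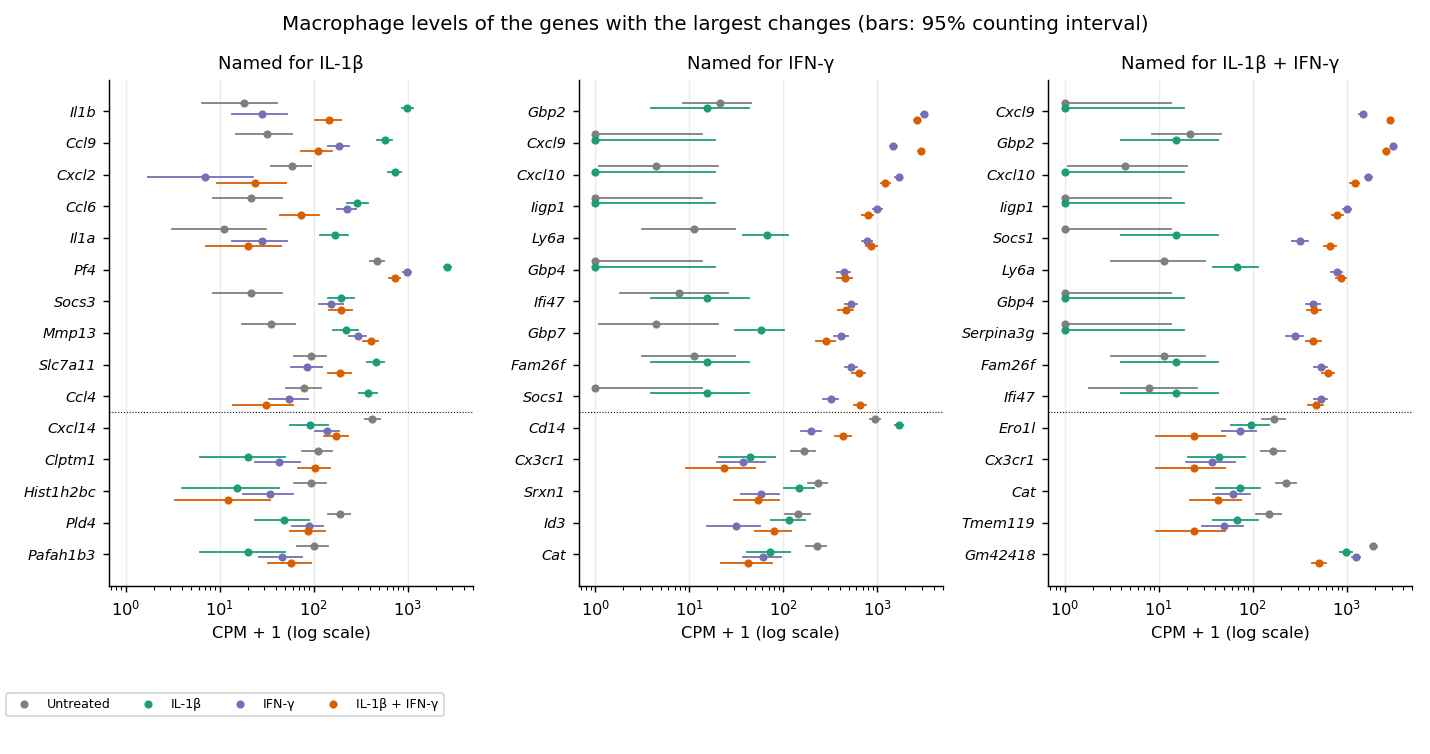
Macrophage levels in CPM + 1 (x axis, log scale) of the 10 genes with the largest increase and, under the dotted line, the 5 with the largest decrease for each treated library against the untreated library, among genes detected in at least 25% of the macrophages of the higher library and without hormones, rule genes and markers of other cells. Points are the 4 libraries and bars the exact Poisson 95% interval; the 10 genes higher with IFN-γ are high in both libraries that received it, most of the 10 higher with IL-1β are highest with IL-1β alone, and among the decreases *Cx3cr1* and *Cat* are low in all 3 treated libraries.

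Transcription factors of the pathway were also higher in both libraries with IFN-γ. *Irf1*, an interferon-induced factor, was at 30.8, 9.56, 456 and 385 CPM, and *Irf8*, a factor of the myeloid lineage, at 400.2, 373, 1641 and 1572. With IFN-γ these were 14.8-fold (95% interval 7.59 to 33.0) and 4.10-fold (95% interval 3.35 to 5.05) higher. *Socs1*, which encodes an inhibitor of JAK signaling, was at 0 CPM untreated, 14.3 with IL-1β, 319.8 under IFN-γ and 661 under both. It was 2.07-fold (95% interval 1.62 to 2.66) higher with both cytokines than with IFN-γ alone. *Socs3*, an inhibitor of cytokine receptor signaling, was higher in all 3 treated libraries, at 20.5, 196, 154 and 196 CPM. Of the list of the IFN-γ receptor and JAK-STAT pathway, 6 of 14 counted genes were at least 2-fold higher with IFN-γ, 8 of 13 with both and 1 of 10, *Socs3*, with IL-1β. None was lower.

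Sequences just before the start of transcription are shown for the IFN-γ genes in which an interferon-type motif was found. The search used TTTC, 2 bases of any kind and TTTC (an interferon-stimulated response element, ISRE), TTCNNNGAA (a STAT site, GAS), and GGG, 2 bases of any kind and TTTCC (an NF-κB site), on both strands, in RefSeq promoters of GRCm38.p6 that run from 250 bases before to 50 after the start. Of the 10 genes named for IFN-γ, 6 had a promoter in the table. ISRE letters were in 4 of these, *Gbp2*, *Gbp7*, *Cxcl10* and *Socs1*, against 3.44% of all 32851 promoters, GAS letters in 1, *Gbp7*, against 8.3%, and NF-κB letters in none, against 1.63%. The promoters of *Cxcl9* and *Ifi47* held none of these letters in this window. The 250 bases before the start follow, 5′ to 3′ on the strand of the gene, with the matches in capitals: *Gbp2* (chr3:142620413-142620662, + strand), *Gbp7* (chr3:142530086-142530335, + strand), *Cxcl10* (chr5:92348890-92349139, − strand) and *Socs1* (chr16:10785537-10785786, − strand).
Gbp2: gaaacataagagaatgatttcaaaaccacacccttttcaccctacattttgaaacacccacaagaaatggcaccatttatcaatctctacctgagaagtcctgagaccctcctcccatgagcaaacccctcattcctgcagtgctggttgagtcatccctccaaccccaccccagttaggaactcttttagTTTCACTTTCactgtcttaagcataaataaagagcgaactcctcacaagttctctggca
Gbp7: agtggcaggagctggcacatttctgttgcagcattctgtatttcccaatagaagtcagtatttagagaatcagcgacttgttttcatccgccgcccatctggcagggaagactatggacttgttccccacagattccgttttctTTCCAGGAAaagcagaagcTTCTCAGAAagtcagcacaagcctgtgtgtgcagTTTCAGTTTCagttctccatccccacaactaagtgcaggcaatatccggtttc
Cxcl10: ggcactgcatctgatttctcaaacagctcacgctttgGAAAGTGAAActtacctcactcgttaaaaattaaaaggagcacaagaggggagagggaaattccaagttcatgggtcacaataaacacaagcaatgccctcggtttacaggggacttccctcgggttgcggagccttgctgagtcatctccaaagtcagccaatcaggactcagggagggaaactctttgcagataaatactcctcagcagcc
Socs1: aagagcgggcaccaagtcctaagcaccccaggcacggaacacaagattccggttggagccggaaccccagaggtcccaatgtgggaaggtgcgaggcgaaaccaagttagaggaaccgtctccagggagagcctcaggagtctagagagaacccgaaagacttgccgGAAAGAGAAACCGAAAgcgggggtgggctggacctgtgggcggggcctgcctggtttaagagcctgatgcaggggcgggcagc
The ISRE letters begin 59 bases before the start in *Gbp2*, 53 in *Gbp7*, 213 in *Cxcl10*, and 83 and 77 in *Socs1*, where the 2 matches overlap. In *Gbp7* the 2 GAS matches begin 106 and 87 bases before the start. A match is a description of the letters and not evidence of binding.

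Chemokines that attract activated T cells through CXCR3 were carried by part of the macrophages. *Cxcl9* (chr5:92321347-92328079, − strand, mm10) gave no UMI untreated or with IL-1β, 1481 CPM under IFN-γ and 2921 under both, at least 144-fold and 285-fold higher than untreated. It was detected in 21 of 40 cells with IFN-γ (52.5%, exact binomial 95% interval 36.1 to 68.5) and 19 of 28 with both (67.9%, 47.6 to 84.1). After thinning these shares were 44.7% and 64.3%, and in β-cells, without thinning, 1.02% and 16.2%. *Cxcl10* was at 3.42, 0, 1698 and 1220.3 CPM, and 3 cells held 62.3% of its UMIs with IFN-γ and 72.4% with both. In contrast, the 3 highest cells held 17.3% and 21.4% of the *Gbp2* UMIs. With IFN-γ, 12 cells had both chemokines, 9 *Cxcl9* alone, 10 *Cxcl10* alone and 9 neither, and with both cytokines these numbers were 11, 8, 5 and 4. In these libraries every cell with *Cxcl10* also had *Gbp2*, as did the 18 and 12 cells without *Cxcl10*. These gene pairs were chosen after their values were seen. *Serpina3g*, a protease inhibitor, followed *Cxcl9* in its libraries, at 0, 0, 281 and 442 CPM.

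**Figure D4:**
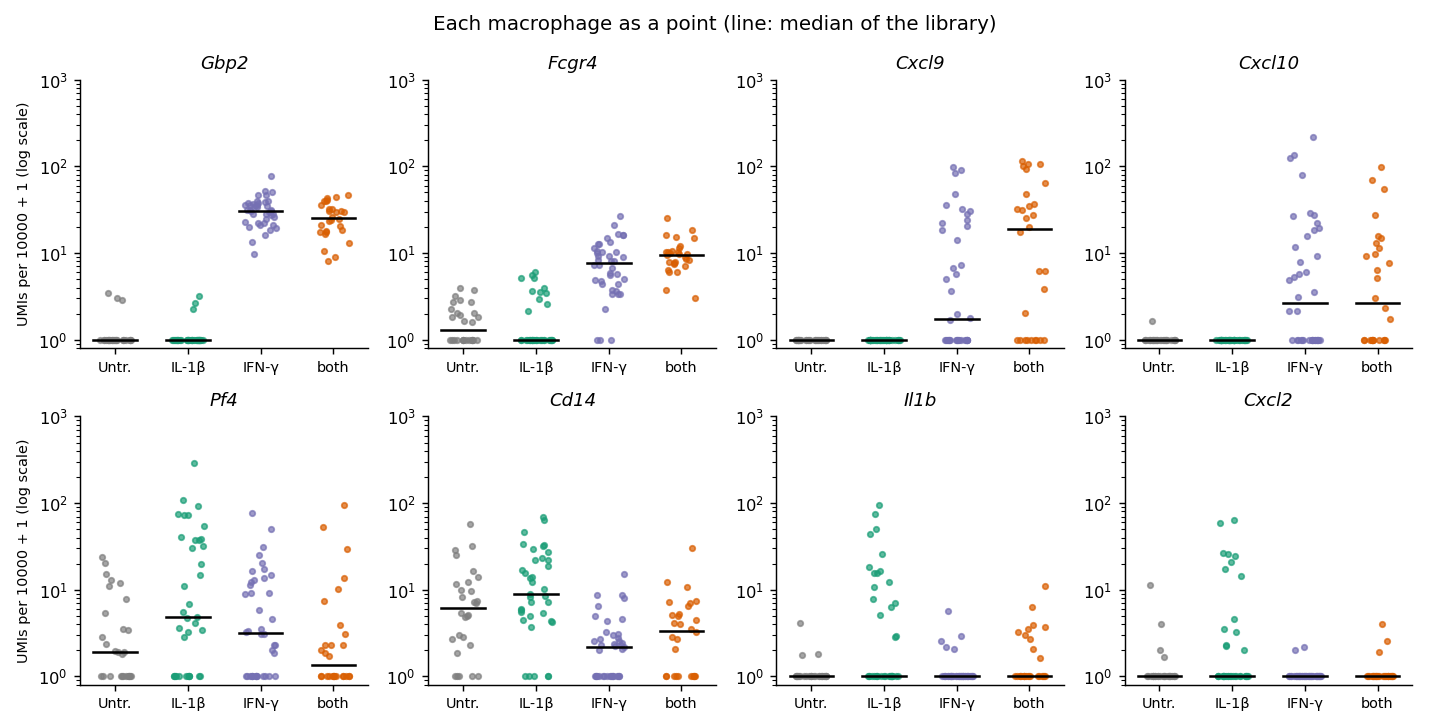
Each macrophage as a point, in UMIs per 10000 + 1 (y axis, log scale), for 8 genes in the 4 libraries, with a line at the median. *Gbp2* is above 7 UMIs per 10000 in every cell of the 2 libraries with IFN-γ, whereas *Cxcl9*, *Cxcl10*, *Il1b* and *Cxcl2* spread from no UMI to 63.3 or more per 10000 in their highest library.

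Part of the antigen presentation genes were at least 2-fold higher with IFN-γ. Of the genes for MHC class I and peptide loading, 8 of 15 were at least 2-fold higher with IFN-γ and 8 of 14 with both, none of 13 with IL-1β, and none was lower. *Tap1*, the peptide transporter, was at 37.6, 38.2, 305 and 374 CPM. *Psmb9*, an immunoproteasome subunit, was at 140.2, 100.4, 495 and 506. The classical class I gene *H2-K1* was 1.61-fold (95% interval 1.47 to 1.77) higher with IFN-γ, under the fold used for counting. Of the MHC class II list, 2 of 7 counted genes were higher with IFN-γ, *Ciita*, the class II transactivator, and *H2-DMa*, which loads peptides. *Ciita* was at 3.42, 0, 93.5 and 60.5 CPM and *H2-DMa* at 85.5, 76.5, 259 and 351. The chain *H2-Aa*, already abundant without treatment, was at 1830.1, 1740.2, 2072 and 2395 CPM, and *Cd74* at 5507, 2988, 4127 and 6045. With both cytokines, 2 of 6 class II genes were higher, *H2-DMa* and *H2-DMb1*, and with IL-1β none of 6.

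Surface receptors that meet antibody and T cells differed as well. *Fcgr4*, an activating receptor for IgG2 antibodies, was at 71.8 CPM untreated, 95.6 with IL-1β, 754 under IFN-γ and 907 under both, and no β-cell or endothelial cell held a UMI of it. It was 10.5-fold (95% interval 6.72 to 17.3) higher with IFN-γ. *Fcgr1* was at 243, 306, 546 and 722 CPM. *Fcgr3* was at 328, 736, 926 and 1349, at least 2-fold higher in all 3 treated libraries. Of the 5 Fc receptors, 2, 3 and 4 were higher with IL-1β, IFN-γ and both. *Cd274*, which encodes the inhibitory ligand PD-L1, was at 30.8, 115, 462 and 416 CPM, and *Cd86*, which costimulates T cells, at 113, 219.9, 299 and 295. *Cd40* was at 17.1, 0, 42.2 and 166 CPM, highest with both cytokines. In the costimulation and checkpoint list, 1 of 2, 3 of 3 and 4 of 4 counted genes were higher.

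Of the interferon-induced antiviral genes, 8 of 11 were at least 2-fold higher with IFN-γ and 8 of 10 with both, and of 3 counted with IL-1β none was higher and *Isg15*, a ubiquitin-like modifier, was lower. *Isg15* was at 95.8, 28.7, 235 and 563 CPM. *Zbp1*, a sensor of unusual nucleic acids, was at 58.2, 52.6, 416 and 397. *Acod1*, the enzyme that makes itaconate, was at 3.42, 4.78, 241 and 246 CPM. It was detected in 42.5% of the cells with IFN-γ and 67.9% with both, or 23.7% and 21.4% after thinning. In β-cells, without thinning, these shares were 0.169% and 30.5%. *Ly6a*, a surface protein, was at 10.3, 66.9, 778 and 869 CPM. *Fam26f*, also named for its size of change, was at 10.3, 14.3, 528 and 635.

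Leaving out hormones, and among genes detected in at least 25% of the macrophages of the higher library, the 5 with the largest decrease under IFN-γ were *Cd14*, *Cx3cr1*, *Srxn1*, *Id3* and *Cat*. *Cd14*, the co-receptor for bacterial lipopolysaccharide, was at 948 CPM untreated, 1712 with IL-1β, 199 under IFN-γ and 434 under both. It was 4.76-fold (95% interval 3.63 to 6.32) lower with IFN-γ than untreated, and the IL-1β library was the highest. *Cx3cr1*, a chemokine receptor of tissue macrophages, was at 164, 43.0, 36.2 and 22.7 CPM, low in all 3 treated libraries. *Cat*, which encodes catalase, had the same order, at 226, 71.7, 60.3 and 41.6 CPM, but after thinning its log2 difference with IFN-γ was -0.85 in place of -1.61, within 2-fold. *Srxn1*, which restores oxidized peroxiredoxins, was at 233, 148, 57.3 and 52.9. *Id3*, an inhibitor of helix-loop-helix factors, was at 144, 115, 30.2 and 79.3. In the untreated library the 3 highest cells held from 40.9% (*Cat*) to 64.3% (*Id3*) of the UMIs of these 5 genes.

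The genes named for IL-1β included the gene of the cytokine itself. *Il1b* (chr2:129364570-129371139, − strand, mm10) was at 17.1 CPM untreated (95% interval 5.55 to 39.9), 994 with IL-1β (864 to 1139), 27.1 under IFN-γ (12.4 to 51.5) and 144 under both (102 to 197). The IL-1β library was 58.1-fold (95% interval 24.5 to 181) higher than untreated. *Il1b* was detected in 17 of 37 cells (45.9%, exact binomial 95% interval 29.5 to 63.1; 33.3% after thinning), against 3 of 28 untreated, and the 3 highest cells held 44.2% of its UMIs. In β-cells *Il1b* was at 6.27, 18.9, 20.1 and 29.1 CPM. *Il1a*, which signals through the same receptor, was at 10.3, 167, 27.1 and 18.9 CPM. *Il1rn*, which encodes the receptor antagonist, was higher in all 3 treated libraries, at 30.8, 143, 163 and 340.0 CPM, and highest with both cytokines. *Tnf* was at 34.2, 23.9, 57.3 and 86.9 CPM and had too few UMIs to be counted with IL-1β or IFN-γ alone. With both it was within 2-fold on the counting scale. *Il6* gave 0, 1, 0 and 0 UMIs.

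Chemokines differed in the library where they were highest. *Cxcl2*, a ligand of CXCR2, was at 58.2 CPM untreated, 727 with IL-1β, 6.03 under IFN-γ and 22.7 under both. It was 12.5-fold (95% interval 7.55 to 22) higher with IL-1β, in 14 of 37 cells. The related *Cxcl3* was at 174 and 769.7 CPM without and with IL-1β and gave no UMI in either library with IFN-γ, at least 19.3-fold and 15.4-fold below untreated. Of the untreated *Cxcl3* UMIs, 3 cells held 96.1%. Among CC chemokines, *Ccl9* was at 30.8, 569, 184 and 109.6 CPM, *Ccl6* at 20.5, 292, 226 and 71.8, and *Ccl4* at 78.7, 382, 54.3 and 30.2. *Ccl7* gave no UMI untreated and was at 191 CPM with IL-1β, 12.1 under IFN-γ and 64.2 under both. *Ccl5* was at least 2-fold lower with IL-1β, at 4406, 2185, 2715 and 2829.8 CPM. *Pf4*, a platelet-type chemokine that macrophages also make, was at 472, 2634, 986 and 729 CPM. Of the CC chemokines 4 of 6 counted genes were at least 2-fold higher with IL-1β and 1 lower, and of the CXC chemokines 2 of 4 were higher and 1, *Cxcl14*, lower. The monocyte attractants *Ccl2*, at 6.84, 105, 106 and 132 CPM, and *Ccl12*, at 10.3, 19.1, 187 and 219, were at least 2-fold higher with IFN-γ and with both, and had too few UMIs to be counted with IL-1β. With IFN-γ the counts were 4 of 7 higher and 1, *Ccl3*, lower for CC, and 2 of 5 higher and 2 lower for CXC. With both they were 3 of 6 and 1, and 3 of 5 and 2.

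The cells with these transcripts overlapped only in part. With IL-1β, 9 cells had both *Il1b* and *Cxcl2*, 8 *Il1b* alone, 5 *Cxcl2* alone and 15 neither. For *Il1b* and *Il1rn* the numbers were 10, 7, 5 and 15. These pairs, too, were chosen after their values were seen. Cells with *Il1b* had a median of 6438 UMIs and cells without it 4691, so depth moved with detection, and its part was not tested. NF-κB letters were found in the promoters of 2 of the 9 genes named for IL-1β that had one, *Cxcl2* (chr5:90903649-90903898, + strand) and *Ccl9* (chr11:83578637-83578886, − strand), GAS letters in 2 and ISRE letters in 1, against the shares of all promoters given above. The promoter of *Il1b* held none in this window. The NF-κB matches are in capitals.
Cxcl2: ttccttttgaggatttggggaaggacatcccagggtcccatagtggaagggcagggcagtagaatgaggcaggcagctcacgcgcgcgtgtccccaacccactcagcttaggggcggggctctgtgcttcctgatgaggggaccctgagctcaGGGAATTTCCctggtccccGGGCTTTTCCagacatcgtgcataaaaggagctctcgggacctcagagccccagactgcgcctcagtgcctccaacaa
Ccl9: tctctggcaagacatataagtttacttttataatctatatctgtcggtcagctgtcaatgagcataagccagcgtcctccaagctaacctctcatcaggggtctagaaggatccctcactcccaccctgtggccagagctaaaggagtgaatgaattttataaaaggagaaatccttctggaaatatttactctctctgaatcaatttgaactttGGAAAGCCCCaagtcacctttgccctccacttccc
They begin 97 and 78 bases before the start in *Cxcl2* and 35 in *Ccl9*.

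Other genes higher with IL-1β belonged to several functions. *Cebpb*, a transcription factor of the inflammatory response, was at 383, 1281, 588 and 911 CPM and was detected in 35 of 37 cells with IL-1β. *Msr1*, a scavenger receptor, was at 219, 717, 302 and 366. *Slc7a11*, the cystine transporter, was at 92.4, 459, 84.5 and 189, and *Mmp13*, a collagenase, at 34.2, 219.9, 296 and 404. The first 3 were highest with IL-1β and *Mmp13* with both. In the list of the IL-1 receptor and NF-κB pathway 2 of 5 counted genes were higher, *Il1rn* and *Nfkbia*. *Nfkbia* was at 109, 301, 133 and 144 CPM. With IFN-γ 1 of 7 was higher, and with both 2 of 6 were higher and 1, *Irak1*, lower. Of the acute inflammatory effectors 3 of 5, 2 of 6 and 3 of 6 were higher with IL-1β, IFN-γ and both, *Sod2*, a mitochondrial antioxidant enzyme, in each. Of the cytokines and growth factors 2 of 5, 1 of 4 and 1 of 6 were higher and *Igf1* lower in each. Of the pattern recognition list *Msr1* was higher with IL-1β and *Cd14* lower with IFN-γ and with both, of 3, 3 and 4 counted. Of 2 counted tissue-resident genes *Pf4* was higher with IL-1β and with IFN-γ, and *Stab1* lower with IFN-γ.

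Leaving out hormones and genes detected in under 25% of the untreated macrophages, the 5 genes with the largest decrease under IL-1β had few UMIs in that library. *Cxcl14*, a chemokine, was at 421, 90.8, 139 and 174 CPM, 4.63-fold (95% interval 2.84 to 7.96) lower with IL-1β and low in all 3 treated libraries. *Pld4*, a lysosomal nuclease, was at 188, 47.8, 87.5 and 86.9. *Clptm1*, *Hist1h2bc* and *Pafah1b3* gave 4, 3 and 4 UMIs with IL-1β, against 32, 27 and 29 untreated. Insulin transcripts were also lowest with IL-1β, with *Ins1*, *Ins2* and *Sst* at least 2-fold lower. Of the endocrine markers *Sst* was lower with IFN-γ, and *Ins1*, *Ins2*, *Iapp*, *Gcg* and *Sst* with both. The share of insulin in β-cells was lowest with IL-1β, and its part in the lower values was not tested.

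With both cytokines few genes were past 2-fold from IFN-γ alone, and several IL-1β genes were below their IL-1β level. Against IFN-γ alone, 12 of 2791 genes (0.43%) were at least 2-fold higher and 32 (1.15%) lower. Against IL-1β alone, 163 of 2267 (7.19%) were higher and 75 (3.31%) lower. *Il1b* was 6.93-fold (95% interval 4.88 to 10.1) lower with both cytokines than with IL-1β alone and 5.29-fold (95% interval 2.51 to 12.4) higher than with IFN-γ alone. *Cxcl2* was 32.1-fold (95% interval 14.4 to 88.7) lower than with IL-1β, *Ccl4* 12.7-fold (95% interval 6.12 to 30.3) and *Pf4* 3.61-fold (95% interval 3.06 to 4.28). *Cxcl3* was at least 67.9-fold lower. *Il1rn* was 2.37-fold (95% interval 1.55 to 3.71) higher than with IL-1β. Besides *Socs1* and *Il1b*, the genes higher than with IFN-γ alone included *Cd14*, *Cd40*, *Isg15* and *Tgfb1*, which were picked after their values were seen. *Cd14* was 2.18-fold higher (95% interval 1.60 to 3.0), *Cd40* 3.94-fold (95% interval 2.12 to 7.78), *Isg15* 2.39-fold (95% interval 1.81 to 3.19) and *Tgfb1*, a regulatory cytokine, 2.22-fold (95% interval 1.52 to 3.29). The genes lower than with IFN-γ alone included *Ccl6*, the antiviral gene *Ifit1* and the endocrine markers *Ins1*, *Ins2*, *Iapp* and *Gcg*. *Cxcl9* was at 1353 to 1618 CPM with IFN-γ and 2718 to 3134 with both (95% intervals), under the fold used for counting.

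Under the same limit on detection, and leaving out hormones, the genes with the largest decrease under both cytokines were *Ero1l*, *Cx3cr1*, *Cat*, *Tmem119* and *Gm42418*. *Tmem119*, used as a marker of microglia, was at 147 CPM untreated, 66.9 with IL-1β, 48.3 under IFN-γ and 22.7 under both. *Ero1l*, an oxidase of the endoplasmic reticulum, was at 168, 95.6, 72.4 and 22.7. *Igf1*, an insulin-like growth factor, was at 202, 81.3, 57.3 and 79.3 CPM, at least 2-fold lower in all 3. *Gm42418*, a gene model whose reads can come from ribosomal RNA, was at 1926, 985, 1246 and 506 CPM in macrophages and 1709, 870.1, 1059.8 and 830.1 in β-cells, so it was highest in the untreated library in both.

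Of 17 lysosomal and scavenging genes, all counted in each comparison, *Ctsl* was higher with IL-1β, *Ctsc* was higher with IFN-γ and with both, and *Cd36* was lower with both. *Ctsb* was at 7255, 8926, 7883 and 8009.7 CPM. None of the 5, 6 and 5 counted complement genes was past 2-fold, and *C1qc*, which is not in the rule, was at 2323, 2390.4, 3822 and 4062 CPM. *C1qa* and *C1qb* of this list are rule genes, so the count is a description only. *Cyba*, a subunit of the phagocyte NADPH oxidase, was at 2117, 1023, 1511 and 2339 CPM and was the 1 gene of 6 on its list past 2-fold, lower with IL-1β. Among 8 counted lipid-handling genes, *Abca1*, which exports cholesterol, was higher with IL-1β, at 277, 693, 247 and 189 CPM. *Fabp5* was higher with IFN-γ and with both, and *Lpl* lower with both. Of 2 metallothioneins, *Mt1* was lower with both, but within 2-fold (log2 difference -0.95) with equal weight per cell. None of 4 heat shock chaperones and, apart from *Ier3* with IL-1β, none of 9 immediate early genes passed 2-fold. The 1 counted gene of the nitric oxide and arginine list was within 2-fold in each.

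β-cells and endothelial cells of the same libraries give a comparison for the genes of both pathways. *Nos2* gave 1, 0, 1 and 0 UMIs in macrophages, and the 95% intervals of the counts of 0 reach 17.6 CPM with IL-1β and 13.9 with both. In β-cells it was at 0, 148, 2.54 and 647 CPM, in 72.1% of the cells with both cytokines. *Gbp2* was at 1.52, 297, 819 and 1834 CPM in β-cells and 9.84, 66.4, 7736 and 8069 in endothelial cells, so the IL-1β library stood above untreated in β-cells and not in macrophages. *Cxcl10* was at 2.17, 68.9, 76.1 and 2684 CPM in β-cells, where both cytokines gave far more than either alone, whereas macrophages had 1698 with IFN-γ and 1220.3 with both. *Nfkbiz*, *Cebpd* and *Lcn2*, which respond to NF-κB in many cells, were at 193, 916 and 512 CPM in IL-1β-treated β-cells and 14.3, 14.3 and 4.78 in the macrophages. These 3 were picked from the listed genes. In the same macrophages 2 of 5 counted genes of the IL-1 receptor and NF-κB list were higher than untreated, *Nfkbia* among them. Of the acute inflammatory effectors 3 of 5 were higher, *Cebpb* among them, and no counted gene of either list was lower. *Il1b* gave no UMI in endothelial cells of any library. The comparison cells numbered 1148, 1014, 1180 and 1213 β-cells and 29, 32, 43 and 23 endothelial cells, and with 1 library per condition the differences between cell types were not tested.

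**Figure D5:**
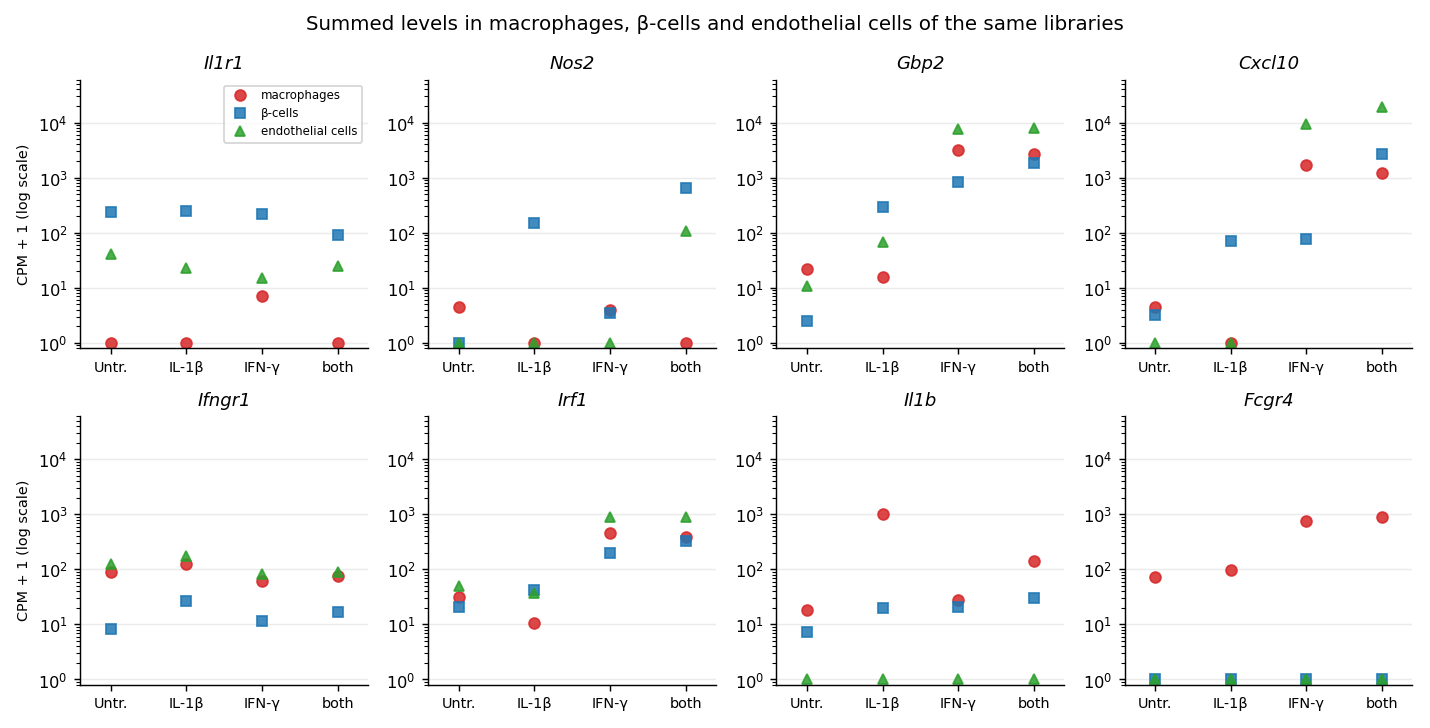
Summed level in CPM + 1 (y axis, log scale) of 8 genes in macrophages, β-cells and endothelial cells of each library. *Il1r1* and *Nos2* are at or near 0 in macrophages in all 4 libraries, whereas *Il1b* is highest in macrophages with IL-1β and *Fcgr4* is detected in macrophages alone of these 3 cell types.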

How the data were processed

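Droplet scRNA-seq libraries were analysed from the deposited count matrices, in which the authors had counted UMIs per gene and barcode with Cell Ranger on mm10 (per the submitters' processing notes; the file headers give software version 3.0.0). The labels and the methods name different kit versions, which was not resolved. No library was pooled with another. Counts of kept cells were summed over the macrophages of each library and scaled to CPM. The rule for cells, the 36 gene lists and the genes named were chosen with earlier results of these data known. For each treated library the 10 largest increases and 5 largest decreases of log2(CPM + 20) against untreated were named, among genes with at least 30 UMIs in the pair and a UMI in at least 25% of the macrophages of the higher library. Genes of the rule, hormones, mitochondrial genes, markers of other cells and genes under 2 times the level expected from β-cell RNA were left out, and 13 genes were named regardless. Results for some genes are not reported here. β-cells were cells with at least 10% insulin transcripts. No doublet caller was run, and the upper gene limit and the hormone and endothelial limits took its place. Fewer cells were kept than the study states. Intervals are exact Poisson or binomial at 95%. Fold intervals condition on the summed UMIs of a pair. Of 31053 gene identifiers, 30934 matched the GENCODE annotation. Of 335 list genes, 3 (*Clec7a*, *Cxcl11* and *Mx2*) were not analysed here. Alternatives were other pseudocounts, other UMI minimums, thinning to 2000 UMIs, equal weight per cell, no hormone genes in the total, and other limits on genes, mitochondrial share, insulin and markers. The scripts were tested on simulated data. Python 3.11.15, numpy 2.4.6, scipy 1.17.1, pandas 2.3.3 and matplotlib 3.10.9 were used.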

Additional observations from a re-analysis of the deposited data

Results flagged for a closer look

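*Mt1*, a metallothionein that binds zinc and copper, was lower in macrophages and higher in β-cells with both cytokines than untreated. The difference in log2(CPM + 20) was -1.01 in macrophages and 2.17 in β-cells, and this difference between cell types was not tested. In macrophages *Mt1* was at 10136 CPM untreated, 8926 with IL-1β, 7092 under IFN-γ and 5014 under both. The 3 highest untreated cells held 56.7% of its UMIs, and with equal weight per cell the levels were 8812, 8409, 6186 and 4556 CPM, a log2 difference of -0.95 with both, within 2-fold. In β-cells *Mt1* was at 842, 5235, 1480.4 and 3868 CPM.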

How the results depend on the processing

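With 1 library per condition no library could be left out. Other limits on cells, or thinning every cell first, gave 128 to 139 macrophages. No paired analysis was possible because each condition had 1 library and no test was made. Of 85 alternative counts 60 were within 1.5 times the count reported and 25 were not. Thinned to 2000 UMIs, genes higher and lower were 51 and 22 with IL-1β, 63 and 31 with IFN-γ, and 49 and 31 with both, of 579, 614 and 507 genes with enough UMIs. With a pseudocount of 50 CPM they were 50 and 22 with IL-1β, 129 and 26 with IFN-γ, and 32 lower with both. With 5 CPM, 93 were lower with IL-1β and 79 with IFN-γ. With a minimum of 1 UMI they were 213 and 212, 300 and 150, and 313 and 218 of 10681, 10911 and 10679 genes, and with 100 UMIs 29 and 16, 79 and 13, and 71 and 18 of 672, 896 and 787. All 45 named changes kept their direction when cells were thinned, weighted equally or required to hold 5 markers, and 44 were past 2-fold after thinning, all but *Cat* with IFN-γ. Leaving out cells with 2 markers of another leukocyte removed no cell. Of 176 levels, 47 lay outside the counting interval after thinning and 11 with equal weight.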
